A study of Arabidopsis thaliana with 3 samples.

Results

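RNA-directed DNA methylation (RdDM) is the plant pathway in which small RNAs guide the methylation of cytosines. In the upstream arm, RNA polymerase IV makes short transcripts that an RNA-dependent RNA polymerase copies into double strands and a Dicer-like enzyme cuts into small RNAs. In the downstream arm, an ARGONAUTE protein carries these small RNAs to transcripts of RNA polymerase V, where the methyltransferase DRM2 is recruited. RdDM is known for keeping up CHG and CHH methylation (H is A, C or T) at the edges of transposons and at short repeats. CG methylation within genes is maintained by MET1 and does not need small RNAs.

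Here the genes that encode this pathway were examined as targets of methylation themselves. The set held 10 genes chosen by name from the known pathway, of 27444 protein-coding genes in all. The upstream arm was represented by *NRPD1* (AT1G63020), *NRPD2* (AT3G23780), *CLSY1* (AT3G42670), *SHH1* (AT1G15215), *RDR2* (AT4G11130) and *DCL3* (AT3G43920). The downstream arm was represented by *NRPE1* (AT2G40030), *AGO4* (AT2G27040), *DRD1* (AT2G16390) and *DMS3* (AT3G49250), and *NRPD2* encodes a subunit of both polymerases. All 10 had enough calls to be tested (at least 10 CG cytosines and 100 calls in every library), as did 26932 genes in all. For each gene the body, from start to end of the annotated gene, and the 1 kb on either side were measured.

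The measurements came from whole-genome bisulfite sequencing of leaf DNA (*Arabidopsis thaliana*, Col-0, mature leaves), in which unmethylated cytosines are read as T and methylated ones as C. WT gave 1 library and *h3.3kd* gave 2. The *h3.3kd* plants combine insertions in the histone H3.3 genes *HTR4* (*htr4-2*) and *HTR8* (*htr8-2*) with an artificial microRNA, expressed from the promoter of *HTR5*, that targets the third H3.3 gene, *HTR5*. The question for these genes was whether their methylation differed between plants with full and with reduced H3.3, the H3 histone that is deposited outside replication. The microRNA lowers *HTR5* and does not delete it. The transgenic line behind each of the *h3.3kd* replicates is not named in their labels.

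Depth was alike, with 19.6 (WT), 19.2 (*h3.3kd* 1) and 19.7 (*h3.3kd* 2) calls per cytosine of the nuclear genome. Over the bodies of the 10 genes, depth relative to the median gene of the same library was between 0.942 and 1.06 times that in WT. WT has 1 library, so that Fisher's exact tests below compare libraries and not conditions, and the spread of the *h3.3kd* pair (SD, n = 2) is the only replicate error. The study sequenced separate transgenic lines, so that this spread also holds differences between lines. An exact permutation test of 1 against 2 libraries cannot give a p below 0.333. The study's lines descended from a parent already carrying the insertions, so that changes along that descent and an effect of the knockdown cannot be told apart. Intervals are 95% Wilson intervals and cover counting error only.

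Some short stretches inside these genes lost or gained most of their CG methylation, and 5 of them are shown here to make the scale of the events visible. They are 100-bp tiles on TAIR10 coordinates, the strongest loss within *AGO4*, *NRPD2*, *DCL3* and *NRPD1* and the strongest gain within any of the 10 genes, outside UTRs. Each line is the plus strand of the reference from 5′ to 3′, and capitals mark the CG sites that were measured. *DCL3* lies on the plus strand and the other genes on the minus strand.

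AGO4 loss, chr2:11538101-11538200: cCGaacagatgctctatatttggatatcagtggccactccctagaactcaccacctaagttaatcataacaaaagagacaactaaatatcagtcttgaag
NRPD2 loss, chr3:8570201-8570300: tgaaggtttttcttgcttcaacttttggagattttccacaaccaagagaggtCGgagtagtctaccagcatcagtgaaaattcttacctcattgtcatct
DCL3 loss, chr3:15760001-15760100: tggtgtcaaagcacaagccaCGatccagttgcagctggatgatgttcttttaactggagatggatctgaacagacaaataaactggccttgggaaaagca
NRPD1 loss, chr1:23355401-23355500: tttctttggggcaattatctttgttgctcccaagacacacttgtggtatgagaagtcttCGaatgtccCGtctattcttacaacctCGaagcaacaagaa
NRPD1 gain, chr1:23356201-23356300: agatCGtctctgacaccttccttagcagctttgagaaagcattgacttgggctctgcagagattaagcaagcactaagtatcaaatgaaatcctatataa

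In 4 of these tiles the whole difference sat on 1 CG dyad, that is, the CG on both strands. The *AGO4* dyad was methylated in 100% of 30 calls in WT against 15.2% of 46 calls (*h3.3kd* 1) and 12.5% of 32 calls (*h3.3kd* 2). The *NRPD2* dyad, in coding sequence, had 78.1% in WT and 0% in both *h3.3kd* libraries (32, 31 and 23 calls). The *DCL3* dyad, also coding, had 75.6%, 4.35% and 0%. The tile of *NRPD1* that lost methylation held 3 dyads, and these did not move as a block. The first had 92.0% in WT against 42.2% and 34.3%, and the third 89.7% against 5.88% and 5.45%. The dyad between them went from 74.1% to 0% in *h3.3kd* 1 but to 43.2% in *h3.3kd* 2. The gained dyad of *NRPD1* lay in another tile, closer to the start of the gene, and had 0% of 31 calls in WT against 88.9% and 82.8%.

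Over whole gene bodies the 10 genes ranged widely in WT and were mostly well methylated. *DCL3* had the highest CG level at 60.8%, followed by *NRPD1* at 58.1%, *RDR2* at 52.1%, *CLSY1* at 45.1% and *DRD1* at 43.1%. *NRPE1* (30.6%), *NRPD2* (29.9%), *AGO4* (29.2%) and *SHH1* (28.9%) formed a group whose neighbours did not differ beyond their intervals, and neither did *CLSY1* and *DRD1*. *DMS3* was lowest at 16.1%. The median of the 10 was 36.8%, against 5.16% over all tested genes. Even *DMS3* had a level above that of 68.1% of tested genes, and *DCL3* above that of 96.1%. Apart from *SHH1*, which was longer than 47.7% of genes, they were long, each longer than at least 88.7% of genes. Pooled over the 10 genes the CG level in WT was 56.2% in coding sequence, 20.04% in introns and 2.57% in UTRs. Introns differed between genes, with 58.2% in *DCL3*, close to its coding sequence (64.9%), 30.4% in *DRD1* and 0% in *RDR2*.

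In *h3.3kd* the pooled CG level over the 10 bodies was 39.8% and 38.2%, against 42.2% in WT. The mean difference was −3.22 points (SD of the pair 1.13 points), and both libraries were below WT. Over all protein-coding genes the same difference was −1.90 points (SD 0.283). Relative to the WT level this was −7.64% for the 10 genes and −11.4% for all genes. The CG level was lower in both *h3.3kd* libraries in 7 of the 10 genes, and in the other 3 the libraries disagreed on the direction. Of all tested genes 51.7% were lower and 25.7% higher in both.

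By Fisher's exact test with Benjamini-Hochberg adjustment over all tested genes (FDR under 0.01 in both libraries, same direction), *NRPD2*, *RDR2* and *AGO4* fell and none of the 10 rose. That is 3 of 10, beside 19.1% of all tested genes for a fall and 4.84% for a rise. The tested genes as a whole were less methylated in WT (median 5.16% against 36.8%). Genes of a like level or length were not compared, here or for the shares below. When a change of at least 10 points was also required in both libraries, 0 of 10 passed, beside 1.44% of genes lower and 0.301% higher. Without *h3.3kd* 1 the test called 5 genes lower, adding *NRPD1* and *DRD1* (beside 26.3% of all genes), and without *h3.3kd* 2 it called 4, adding *NRPE1* (beside 23.2%). *AGO4* alone passed the 10-point rule without *h3.3kd* 1. limma, which uses the spread of the pair, called 0 of 10 genes and 0 of 26932 at an FDR under 0.05 (at an unadjusted p under 0.05, 0 of the 10 genes, and 2367 genes lower and 1569 higher).

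**Figure D1:**
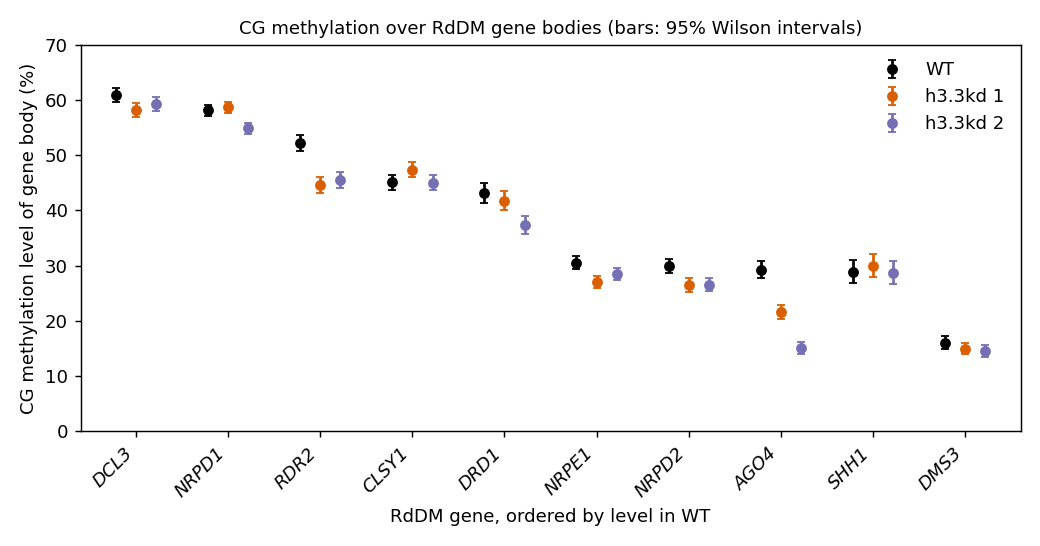
CG methylation level (percent of calls that were C) over the body of each of the 10 genes in WT (black), *h3.3kd* 1 (orange) and *h3.3kd* 2 (purple), ordered by the level in WT, with 95% Wilson intervals as bars. *RDR2* (52.1% in WT, 44.6% and 45.5% in *h3.3kd*) and *AGO4* (29.2%, 21.6% and 15.1%) stand clear of their WT points, while *CLSY1*, *SHH1* and *DMS3* do not.

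Of the polymerase subunits, *NRPD1* encodes the largest subunit of RNA polymerase IV. Its body had a CG level of 58.1% in WT against 58.7% (*h3.3kd* 1) and 54.9% (*h3.3kd* 2). Only the second library was below WT (adjusted p = 5.66e-05, against 0.615 for the first, Fisher's exact test), and the *h3.3kd* libraries differed from each other (adjusted p = 5.54e-06). *NRPE1*, the largest subunit of RNA polymerase V, had 30.6%, 27.0% and 28.6%. Here the first library passed (adjusted p = 3.35e-05) and the second did not (adjusted p = 0.0344, Fisher's exact test). *NRPD2*, the second largest subunit of both polymerases, had 29.9%, 26.5% and 26.6%, and it fell by 3.39 points with an SD of 0.0667 points between the *h3.3kd* libraries (adjusted p = 0.000857 and 0.000983, Fisher's exact test). The drop in *NRPD2* was small and the same in both libraries, whereas *NRPD1* and *NRPE1* each passed in 1 library.

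*CLSY1* is a chromatin remodeler and *SHH1* a homeodomain protein that reads histone H3, and both help to bring RNA polymerase IV to its targets. The *CLSY1* body had 45.1% in WT against 47.4% (*h3.3kd* 1) and 45.05% (*h3.3kd* 2). The *SHH1* body had 28.9%, 29.99% and 28.7%. In both genes WT lay between the *h3.3kd* libraries, and neither gene passed in either library. Coding sequence of *SHH1* alone had 43.3% in WT against 40.05% and 39.5%, while its introns had 0.360% against 8.35% and 7.60%.

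*RDR2*, which copies the transcripts of RNA polymerase IV, had 52.1% in WT against 44.6% (*h3.3kd* 1) and 45.5% (*h3.3kd* 2). It fell by 7.12 points with an SD of 0.658 points (adjusted p = 5.98e-12 and 1.63e-09, Fisher's exact test), and the *h3.3kd* libraries did not differ detectably (adjusted p = 0.679). *DCL3*, which cuts the double-stranded RNA, had 60.8%, 58.2% and 59.2%. Both libraries were below WT and neither passed (adjusted p = 0.0119 and 0.156, Fisher's exact test).

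*AGO4*, which binds the small RNAs, showed the largest mean difference of the 10 genes, although in *h3.3kd* 1 it was level with *RDR2* (−7.63 and −7.59 points). Its body had 29.2% in WT against 21.6% (*h3.3kd* 1) and 15.1% (*h3.3kd* 2), and it fell by 10.9 points with an SD of 4.60 points (adjusted p = 1.25e-12 and 1.17e-46, Fisher's exact test). The *h3.3kd* libraries also differed from each other by −6.51 points (adjusted p = 7.92e-12). In coding sequence alone the levels were 38.9%, 28.1% and 17.4%, and introns stayed between 15.7% and 17.1%. By coding sequence *AGO4* passed the 10-point rule. The genes whose 3 body levels were closest to those of *AGO4*, out of 26932, were AT4G39680 (28.9%, 22.0% and 16.0%, at a distance of 1.10 points) and *FRS8* (AT1G80010, 28.4%, 22.3% and 16.1%, at 1.47 points).

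*DRD1*, a chromatin remodeler, and *DMS3*, an SMC-hinge protein, belong to the complex that RNA polymerase V needs on chromatin. The *DRD1* body had 43.1% in WT against 41.8% (*h3.3kd* 1) and 37.4% (*h3.3kd* 2), and only the second library passed (adjusted p = 0.485 and 2.01e-05, Fisher's exact test). The *DMS3* body had 16.1%, 14.99% and 14.5%, and neither library passed (adjusted p = 0.320 and 0.102). The annotated *DMS3* gene shares 2243 bp with *emb1796* (AT3G49240) on the other strand. Outside that overlap *DMS3* had 26.04%, 25% and 25.1%, and within it 6.28%, 5.45% and 5.10%.

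Compared directly, *h3.3kd* 2 was below *h3.3kd* 1 in *NRPD1*, *AGO4* and *DRD1* and above it in none (3 of 10, beside 7.54% of all tested genes below and 3.20% above). For *NRPD1* and *DRD1* the difference within the pair was thus larger than the mean difference from WT.

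At the resolution of 100-bp tiles (at least 20 CG calls in every library) the windows of the 10 genes held 638 tested tiles. Of these, 31 were lower and 18 higher in both *h3.3kd* libraries (FDR under 0.01 and at least 20 points, Fisher's exact test with Benjamini-Hochberg adjustment). That is beside 3.18% lower and 1.35% higher over the bodies and 1-kb flanks of all genes, and 2.59% and 1.19% over all tiles. Tiles of genes with a like CG level in WT were not compared. The lower tiles lay in the body in 24 cases, downstream in 5 and upstream in 2, and the higher tiles in the body in 16 cases and upstream in 2. In 9 of the lower tiles both *h3.3kd* libraries were under 5%, and in 11 of the higher tiles WT was under 5%. Set against *h3.3kd* 1, *h3.3kd* 2 was lower at 26 tiles and higher at 18 (beside 1.21% and 0.704% of all tiles) by this one-to-one comparison. Compared one to one with WT, *h3.3kd* 1 had 44 lower and 27 higher tiles (beside 4.01% and 2.04% over the bodies and flanks of all genes) and *h3.3kd* 2 had 56 and 27 (beside 4.49% and 1.82%).

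**Figure D2:**
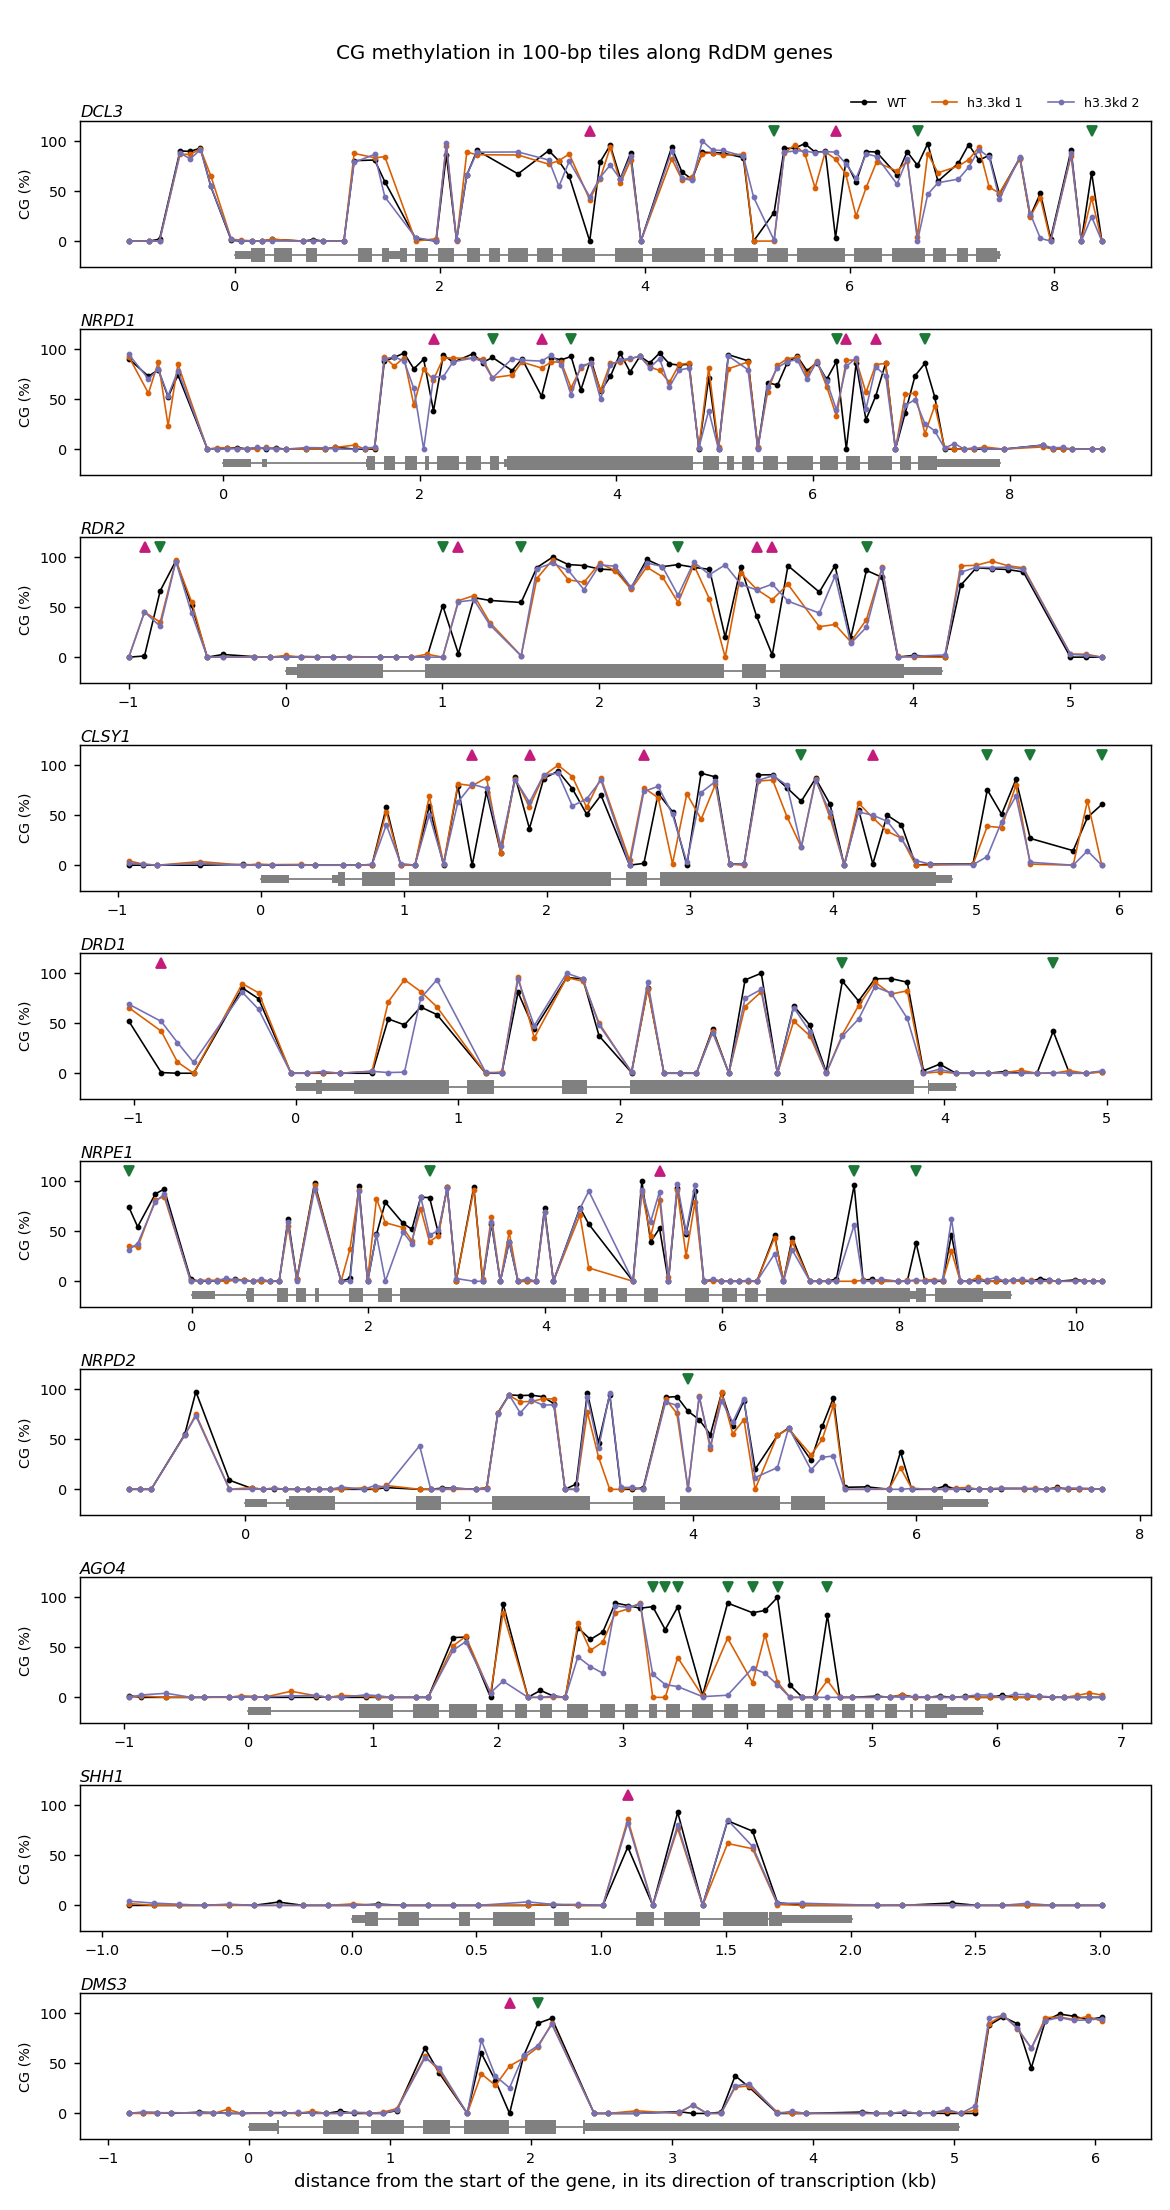
CG level (percent) in 100-bp tiles with at least 10 calls in every library, against distance from the start of the gene in kb, for WT (black), *h3.3kd* 1 (orange) and *h3.3kd* 2 (purple). Thick grey boxes are coding sequence, thinner boxes UTRs and the line introns, and triangles mark tiles lower (green, down) or higher (pink, up) in both *h3.3kd* libraries. In *AGO4* the 7 lower tiles lie together in the second part of the gene, whereas in *NRPD1* and *CLSY1* 4 lower tiles stand beside 4 higher ones.

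The genes differed in how losses and gains were mixed. *AGO4* had 7 lower tiles and no higher tile, all within 1500 bp (chr2:11537701-11539200, 3191 to 4690 bp from its start) that held 855 bp of coding sequence and 645 bp of introns. Over this stretch, chosen from these same tiles, CG methylation was 59.0% in WT against 22.9% (*h3.3kd* 1) and 11.1% (*h3.3kd* 2). The rest of the *AGO4* body had 21.4%, 21.3% and 16.2%. Not all tiles dropped alike. The tile from 3791 bp went from 94.3% to 59.2% (*h3.3kd* 1) and 2.13% (*h3.3kd* 2), and the tile from 3191 bp from 90.7% to 0% and 23.1%.

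*RDR2* had 5 lower and 4 higher tiles, some of them side by side. The tile from 952 bp after its start fell from 51.6% to 0% in both *h3.3kd* libraries, and the next one rose from 3.49% to 56.4% and 55.3%. Near the 3′ end, the tile from 3652 bp had 86.8% in WT (227 calls) against 37.5% and 29.96%. *NRPD1*, with 4 of each, had the same mixture. Its lost tile 7089 bp from the start had 85.7% against 15.4% and 25.4%, and the gain from 0% printed above stood next to a loss, the tile from 6189 bp with 87.7% against 32.9% and 39.1%.

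*CLSY1* had 4 lower and 4 higher tiles. All 4 gains were in the body, the largest from 1429 bp, with 0% of 92 calls in WT against 79.5% and 81.0%. Of its losses 1 was in the body, from 64.0% to 18.1% in both libraries, and 3 lay downstream within AT3G42660. The farthest of these 3 tiles lay mostly beyond the 1-kb flank and was counted because its edge reached into it. *DCL3* had 3 lower and 2 higher tiles. The tile from 5814 bp rose from 3.33% to 82.0% and 88.9%, and the one from 3414 bp from 0% of 124 calls to 41.4% and 44.4%. Neither body passed the test, although single tiles switched in both directions.

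The remaining genes had no more such tiles than *DCL3*. *NRPE1* had 4 lower and 1 higher, among them a coding tile from 7441 bp with 96.0% in WT against 0% (*h3.3kd* 1) and 56.3% (*h3.3kd* 2). *DRD1* had 2 lower and 1 higher, *DMS3* 1 of each, *NRPD2* 1 lower and *SHH1* 1 higher. The *SHH1* tile, from 1057 bp, held 81 bp of intron and 19 bp of coding sequence. It rose from 58.4% to 85.9% and 82.6%. The *SHH1* introns together had 0.360% of 555 calls methylated in WT, so the WT level of the tile came from its coding part.

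Single CG dyads were followed as well. With at least 10 calls in every library, 1244 dyads of the 10 bodies could be followed, and 597 of them were methylated in WT (at least 60%) and 611 unmethylated (under 10%). In both *h3.3kd* libraries 476 dyads stayed methylated, 25 methylated dyads became unmethylated and 21 unmethylated dyads became methylated. The losses were 4.19% of the methylated dyads, beside 7.31% in all protein-coding genes. The gains were 3.44% of the unmethylated dyads, beside 0.886%. The tested genes as a whole had less methylated bodies in WT (median 5.16% against 36.8%), and dyads of genes with a like level were not compared. *RDR2* had the most losses (9 of 73) and *NRPD1* and *CLSY1* the most gains (6 of 66 and 6 of 54), and *AGO4* had 1 loss and no gain by this stricter rule. The 25 losses rest on agreement of the libraries, since *h3.3kd* 1 alone had 45 and *h3.3kd* 2 alone 43. At 42 dyads 1 *h3.3kd* library was methylated and the other unmethylated.

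Along the gene, the difference was larger over the 3′ part than over the 5′ part. Pooled over the first 30% of each body the CG level was 19.2% in WT against 19.6% and 17.04%, and over the last 30% it was 41.5% against 36.6% and 34.7%. The mean differences were −0.820 points (SD 1.84) and −5.84 points (SD 1.35), so that only the 3′ difference exceeded the spread of the pair. With each gene divided into 10 equal bins from its start, the difference was between −8.62 and −7.15 points in bins 7 to 9, −2.36 points in bin 10 and −3.84 points in bin 3. Over all protein-coding genes of at least 1 kb the same differences were −0.442 and −3.86 points. Their WT levels were lower than those of the 10 genes, at 6.34% over the first 30% and 20.4% over the last 30%. The differences in points alone therefore do not show where the loss was stronger.

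Other genes of the pathway, 25 in number, were taken from a list of RdDM factors and their relatives. Of these 10 passed the FDR rule with lower CG methylation and 0 with higher (beside the same 19.1% and 4.84% of all genes). By direction alone, 19 of the 25 were lower and 5 higher in both *h3.3kd* libraries (beside 51.7% and 25.7% of all tested genes). Their median difference was −2.97 points, against −2.44 points for the 10 core genes and −0.221 points for all tested genes. The median level of the 25 in WT was 24.7%, against 5.16% over all tested genes, and genes of a like level were not compared. *KTF1*, an elongation factor-like protein that binds AGO4, had 45.2% in WT and 32.4% and 30.7% in *h3.3kd*, and was the only one to fall by 10 points or more in both (adjusted p = 1.29e-42 and 1.16e-55, Fisher's exact test). *SUVR2*, a SET-domain protein of transcriptional silencing, had 34.1% against 27.0% and 24.2%. *MORC6* (34.0%, 27.5% and 25.02%) and *MORC1* (27.3%, 21.5% and 19.8%), GHKL ATPases that keep chromatin condensed, both fell. So did *IDN2*, an RNA-binding partner of RdDM (44.0%, 37.8% and 35.0%), *HEN1*, which methylates small RNAs (42.5%, 36.98% and 36.8%), and *RDR6*, of the related RNA-silencing pathway (49.8%, 45.2% and 44.6%). *DCL2*, another Dicer-like enzyme, had 35.8% against 31.6% and 28.5%. *AGO6* and *AGO9*, relatives of *AGO4*, passed as well. The methyltransferase gene *DRM2* had 19.4%, 20.8% and 19.5% and did not pass in either library.

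**Figure D3:**
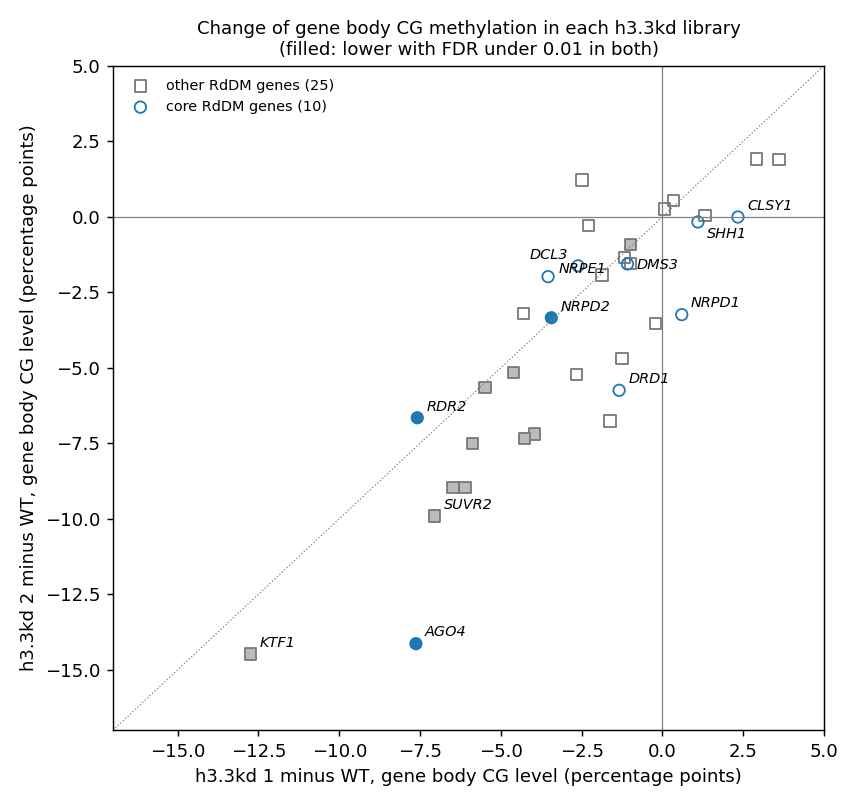
Change of gene body CG level from WT in *h3.3kd* 1 (x axis) and in *h3.3kd* 2 (y axis), in percentage points, for the 10 core genes (blue circles) and 25 other genes of the pathway (grey squares). Filled symbols are lower with an FDR under 0.01 in both libraries, and the dotted line marks equal change. *KTF1* and *AGO4* lie farthest from 0, and *AGO4* is below the line because its change was larger in *h3.3kd* 2.

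Outside the CG context the levels of the gene bodies were under 1%. CHG levels were between 0.334% and 0.770% and CHH levels between 0.464% and 0.633% over all 10 genes and 3 libraries. The medians over all tested genes were 0.555% (CHG) and 0.565% (CHH) in WT. No body passed in either context or direction (beside 0.943% of genes lower and 0.200% higher in CHG, and 0.863% and 0.261% in CHH). No CHG or CHH tile in the windows of the 10 genes was called, of 730 and 783 tested. Over the whole genome 706 of 981270 tested CHG tiles were lower and 473 higher, and 146 of 1151876 CHH tiles lower and 60 higher. Such calls were rare everywhere, so their absence from these windows does not set the 10 genes apart.

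The flanks were more varied than the bodies, and 9 of 20 had a CG level under 2% in every library, among them both flanks of *AGO4* and *SHH1*. By the 10-point rule 2 flanks were lower and 0 higher. Upstream 1 of 10 was lower, beside 2.39% of all genes lower and 0.749% higher, and downstream 1 of 10, beside 4.96% lower and 0.774% higher. These shares are for calls in both libraries, and none is given for calls in 1 library. Without *h3.3kd* 1 the counts were 4 lower and 1 higher.

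**Figure D4:**
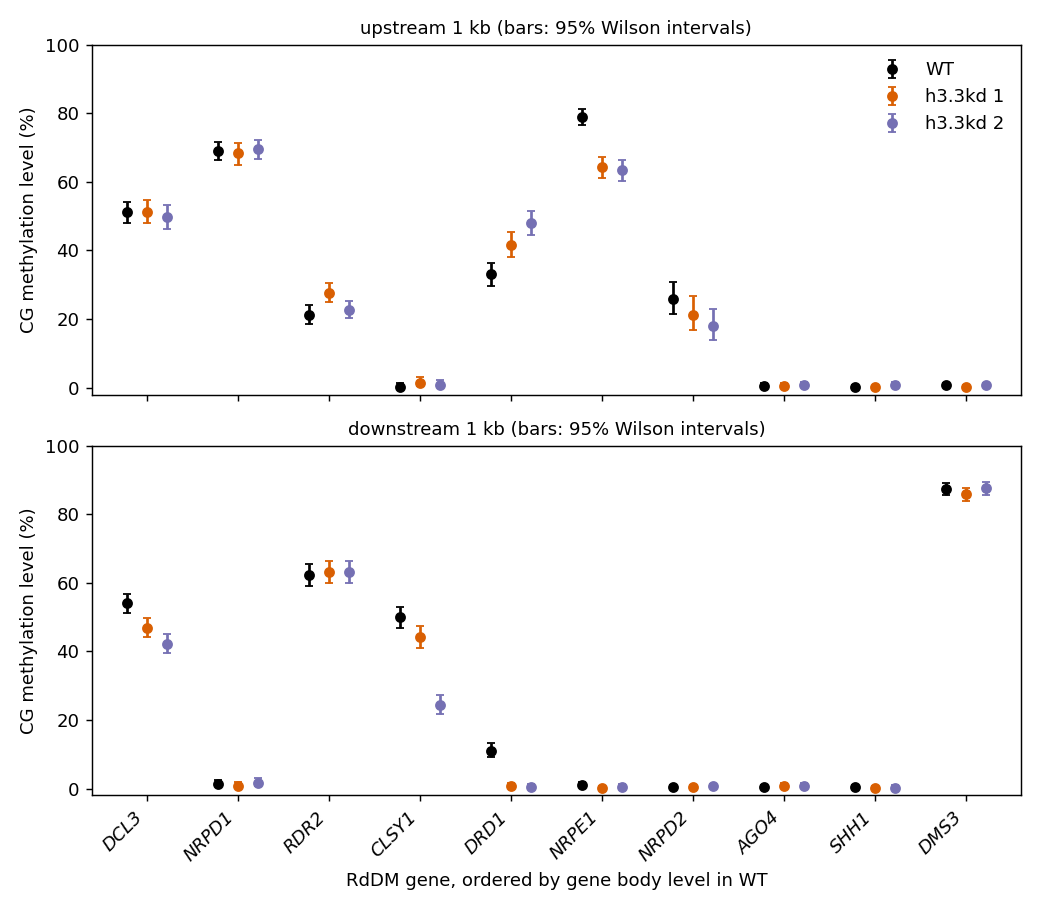
CG level (percent) in the 1 kb upstream and the 1 kb downstream of each of the 10 genes in WT, *h3.3kd* 1 and *h3.3kd* 2, with 95% Wilson intervals as bars. The upstream flank of *NRPE1* (79.0% in WT against 64.3% and 63.3%) and the downstream flank of *DRD1* (11.1% against 0.797% and 0.529%) are lower in both *h3.3kd* libraries, and the upstream flank of *DRD1* is higher.

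The 1 kb upstream of *NRPE1*, which holds no other annotated gene, had 79.0% CG methylation in WT against 64.3% (*h3.3kd* 1) and 63.3% (*h3.3kd* 2), and fell by 15.2 points with an SD of 0.684 points (adjusted p = 9.02e-13 and 1.74e-14, Fisher's exact test). The loss was clearest in its far part, where the tile 759 bp before the start had 74.2% against 35.7% and 31.7%. Depth there also differed, at 1.72 times the median gene in WT against 1.26 and 1.40 times, and its part in the result was not tested. As a mean of site levels, in which depth has no weight, the difference was −13.7 points. CHG (4.69%, 3.12% and 3.43%) and CHH (1.76%, 1.89% and 2.62%) did not pass.

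Downstream of *DRD1* the level was 11.1% in WT against 0.797% (*h3.3kd* 1) and 0.529% (*h3.3kd* 2), and fell by 10.4 points (adjusted p = 2.26e-23 and 1.07e-24, Fisher's exact test). It came from a tile within *BLH7* (AT2G16400), a homeodomain gene on the other strand, that had 42.0% of 231 calls in WT against 0% and 0.505%. Upstream of *DRD1* the level rose, from 33.0% to 41.6% and 48.0% (adjusted p = 0.00649 and 6.50e-08, Fisher's exact test). Relative depth there was 1.30 in WT against 1.09 and 1.21, and its part was not tested. A tile 879 bp before the start had 0.685% in WT against 42.1% and 51.8%. By the FDR rule alone this was the 1 upstream flank that rose, beside 2.39% of all genes.

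Downstream of *DCL3* the level was 54.1%, 46.8% and 42.1%, which passed the FDR rule but not 10 points (2 of 10 downstream flanks, beside 10.7%). The affected tile, with 68.4% against 43.2% and 24.4%, lay in AT3G43930. Downstream of *CLSY1*, within AT3G42660, the level was 49.95% in WT against 44.2% (*h3.3kd* 1) and 24.4% (*h3.3kd* 2). The *h3.3kd* libraries differed from each other there by −19.8 points (adjusted p = 2.15e-17, Fisher's exact test), and only the second was called against WT. Upstream of *RDR2*, neighbouring tiles within AT4G11120 moved in opposite directions, 1 from 66.3% to 35.0% and 30.9% and the other from 1.19% to 45.2% and 45.1%.

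CHH methylation, a context that RdDM maintains, was above the level of the gene bodies at several flanks. Upstream of *DCL3*, where the flank reaches into AT3G43910, CHH methylation was 4.59% in WT against 2.32% (*h3.3kd* 1) and 2.85% (*h3.3kd* 2), and fell by 2.01 points with an SD of 0.375 points (adjusted p = 1.15e-10 and 8.30e-06, Fisher's exact test). It was the 1 of 10 upstream flanks lower in CHH, beside 2.17% of all genes. CHG there was 10.5%, 7.69% and 7.17% and did not pass, and CG was 51.1%, 51.3% and 49.7%. Relative depth was 1.48 in WT against 1.26 and 1.22, and its part was not tested. As a mean of site levels the CHH difference was −1.51 points. The upstream flank of *NRPD2* had the highest CHH level of the upstream flanks in WT, 5.79%, against 4.86% and 4.89%, which did not pass.

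Downstream of *DMS3*, in a flank that reaches into AT3G49230, all 3 contexts were methylated, with 87.4% CG, 55.8% CHG and 9.16% CHH in WT. CHG was 63.2% and 59.7% in the *h3.3kd* libraries and CHH 12.2% and 11.4%. Both contexts passed in *h3.3kd* 1 (adjusted p = 0.00752 and 4.86e-05, Fisher's exact test) and not in *h3.3kd* 2 (adjusted p = 0.550 and 0.0127), and relative depth there was 1.15 in WT against 0.957 and 0.827, the part of which was not tested. Downstream of *RDR2* CHG was 10.01% in WT against 14.3% (*h3.3kd* 1) and 17.4% (*h3.3kd* 2), and only the second passed (adjusted p = 0.183 and 0.000768). Upstream of *NRPD1* CG stayed near 69% in every library (69.1%, 68.3% and 69.5%) and CHH was 3.41%, 4.23% and 4.92%, with only the second *h3.3kd* library passing (adjusted p = 0.339 and 0.00953, Fisher's exact test).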

How the data were processed

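Bisulfite sequencing covered 3 samples of leaf DNA (1 WT, 2 *h3.3kd*), grouped by their labels. Per the methods of the study, identical reads were collapsed and mapped to TAIR10 with BS Seeker. The files the authors deposited hold counts of reads with C and with T at each cytosine, without normalization. Between 1.23% and 1.25% of cytosines stood on several lines, which were summed by position.

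Levels were C over C plus T calls. Gene models came from TAIR10.1. Genes, 1-kb flanks and 100-bp tiles were compared between each *h3.3kd* library and WT by Fisher's exact test (two-sided), adjusted (Benjamini-Hochberg) over all genes or tiles, and called where both libraries passed in 1 direction. The tile criteria were those of the study, used here for gains too. limma 3.58.1 was fitted to the log2 C to T ratio of each gene (0.5 added to counts, 1 residual degree of freedom). The calls were tested on simulated data. For Fisher's exact test the simulated counts held counting error only, so they do not cover spread between libraries.

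The members, lists and tests were chosen with earlier results of these data known. All 10 members and 25 related genes matched the annotation by locus. Of the related genes, those passing the FDR rule were named, at most 8 of them by the smaller of the differences. *AGO6*, *AGO9* and *DRM2* were named after their values were seen. The printed tiles were the strongest loss in each of 4 members and the strongest gain, within bodies and outside UTRs.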

Additional observations from a re-analysis of the deposited data

How the results depend on the processing

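The 3 members lower by the FDR rule became 3 with cytosines of at least 4 calls, 5 by coding sequence alone (adding *NRPD1* and *NRPE1*) and 0 by limma, and between 4 and 5 with 1 *h3.3kd* library. The count of 0 by the 10-point rule became 2 at 5 points, 1 by coding sequence and between 0 and 1 with 1 *h3.3kd* library. No member rose under any of these settings. No share over all genes is given for the counts by coding sequence, at least 4 calls, 5 points, or 10 points with 1 library. Those counts cannot be set against the 19.1% of genes lower over whole bodies. A difference of 40 points left 17 lower and 10 higher CG tiles, and 1 *h3.3kd* library gave between 44 and 56 lower ones and 27 higher ones. At 10 points 1 CHH tile was called. The dyads lost were between 43 and 45 with 1 *h3.3kd* library (chosen after seeing the data, as were the next counts), the flanks lower by 10 points between 2 and 4, and those higher between 0 and 1.

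The pooled body difference in CG stayed between −4.03 and −2.42 points over 4 alternatives. That in CHH, −0.00473 points, was 0.00322 as a mean of site levels (cytosines with at least 4 calls) and −0.0107 as a mean over members. The pooled CG difference upstream, −2.62 points, was −0.0769 as a mean of site levels, −0.564 as a mean over members, −3.84 and −4.36 for flanks of 500 bp and 2 kb, and −3.47 outside other genes. Downstream, −6.53 points, it was −2.88, −3.57, −3.80 (500 bp) and −5.46 (2 kb), and −0.615 outside other genes. These pooled flank values therefore depend on weighting, and downstream on neighbouring genes. Of 40 single-member alternatives 6 changed sign, in *NRPD1*, *CLSY1* and *SHH1*, none of which was called with both libraries over the whole body. The *SHH1* body, 0.461 points in the sum of calls, was −3.48 by coding sequence and −3.07 by site means. The cause was not tested. No paired analysis was possible because WT has 1 library. With 20 calls, a tile bounds only large differences.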
